A study of Mus musculus with 12 samples.

Results

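The regions described here are the strong isolated Bach2 peaks of mouse induced regulatory T cells (iTreg). A deposited ChIP-seq peak was taken when it held at least 100 tags and no other peak midpoint lay within 50 kb of its own midpoint. The rule kept 196 of 22494 peaks, or 0.871%. These were 8.87% of the 2209 peaks with at least 100 tags and 5.73% of the 3420 isolated peaks. The regions were chosen by their measured tags and spacing, so their tags, length and fold enrichment are given as a description with no test.

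The mice were C57BL/6J, and CD4+ T cells of their lymph nodes and spleens were sorted as naive CD4+CD44-CD25-CD62L+ cells. For iTreg, 3-day cultures were stimulated through CD3 and CD28 by immobilised antibodies at 10 µg/ml each, with IL-2 at 100 IU/ml and TGF-β1 at 5 ng/ml. RNA was sequenced from wild-type (WT) iTreg (n = 3) and Bach2KO iTreg (n = 3). Single WT libraries came from fresh naive cells and from 3-day cultures under Th1 (IL-12, 20 ng/ml), Th2 (IL-4, 20 ng/ml) and Th17 conditions (IL-6, 20 ng/ml, with TGF-β1, 2 ng/ml). The ChIP library was 1 WT iTreg sample precipitated with a rabbit anti-Bach2 serum, so peak strength has no replicate error. The labels do not say how Bach2 was inactivated, nor whether the 3 libraries of a group came from separate animals or cultures, so p-values measure only the spread between these libraries.

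Bach2 is a transcriptional repressor of the BTB and CNC family of basic leucine zipper proteins. It pairs with small Maf proteins on Maf recognition elements, whose centre is the site TGAGTCA that AP-1 (Jun and Fos dimers) also binds. In T cells it is known for restraining effector genes and for its part in the formation of regulatory T cells.

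The windows that follow show the 50 bases to each side of the summit, read from the mm9 (NCBIM37) plus strand. Capitals mark the 7-base core TGAGTCA on either strand (TGACTCA on the other), and also a TGC directly before either form where there is one. The first set is from the peaks with most tags, leaving out rank 6, near 4933422A05Rik (338 tags, 4.13-fold, no core in its region). Its windows show that a summit core was present in some of the strongest regions and absent from others. They lie at chr4:107476492-107476592 (intron of Lrp8), chr1:87961409-87961509 (start of Psmd1), chr15:98702621-98702721 (upstream of Mll2), chr5:90653193-90653293 (start of Cox18), chr13:45719436-45719536 (intron of Atxn1), chr2:151800015-151800115 (intron of Fam110a) and chr12:45370643-45370743 (start of Pnpla8).
Lrp8: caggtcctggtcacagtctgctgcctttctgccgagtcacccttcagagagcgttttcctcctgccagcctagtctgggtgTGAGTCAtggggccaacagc
Psmd1: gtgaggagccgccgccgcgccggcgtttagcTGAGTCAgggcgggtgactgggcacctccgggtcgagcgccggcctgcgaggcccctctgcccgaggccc
Mll2: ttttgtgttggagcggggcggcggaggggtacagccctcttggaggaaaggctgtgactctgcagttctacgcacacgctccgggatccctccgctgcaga
Cox18: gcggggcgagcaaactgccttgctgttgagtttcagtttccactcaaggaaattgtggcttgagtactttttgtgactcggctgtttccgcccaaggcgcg
Atxn1: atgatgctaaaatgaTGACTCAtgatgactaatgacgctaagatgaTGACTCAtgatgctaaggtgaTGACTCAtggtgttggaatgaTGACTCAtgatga
Fam110a: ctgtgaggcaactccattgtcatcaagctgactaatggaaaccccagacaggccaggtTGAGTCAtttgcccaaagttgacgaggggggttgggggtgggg
Pnpla8: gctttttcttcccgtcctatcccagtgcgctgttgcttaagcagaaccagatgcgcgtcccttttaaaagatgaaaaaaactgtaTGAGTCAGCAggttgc

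The second set was chosen after the values were seen, because the text returns to these regions. They lie at chr17:28222088-28222188 (between genes, near Tcp11), chr8:67205088-67205188 (within Sc4mol), chr3:50247564-50247664 (start of Slc7a11) and chr13:93406957-93407057 (intron of Serinc5).
Tcp11: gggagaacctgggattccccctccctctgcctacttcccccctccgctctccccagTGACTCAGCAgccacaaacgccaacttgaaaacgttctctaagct
Sc4mol: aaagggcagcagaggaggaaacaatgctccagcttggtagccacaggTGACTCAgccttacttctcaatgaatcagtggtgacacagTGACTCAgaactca
Slc7a11: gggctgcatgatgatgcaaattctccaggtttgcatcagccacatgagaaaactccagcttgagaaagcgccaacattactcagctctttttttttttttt
Serinc5: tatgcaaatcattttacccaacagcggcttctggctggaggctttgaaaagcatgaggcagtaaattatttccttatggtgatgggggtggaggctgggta

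The strongest region lay inside Lrp8, a receptor for apolipoprotein E and reelin, at chr4:107474980-107477142. It held 615 tags at 49.1-fold enrichment over input. The second, at chr1:87960676-87961922, covered the start of Psmd1, a subunit of the proteasome's regulatory particle, with 506 tags and 54.9-fold enrichment. Next in tags came the regions at Mll2, a histone H3 lysine 4 methyltransferase (409 tags), and at Cox18, an assembly factor of cytochrome c oxidase (391 tags). Neither had a core in its whole deposited region.

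Tags ran from 100 to 615 with a median of 144, and 38 regions held at least 200. The deposited length had a median of 1061 bp (366 to 2782 bp), and the fold enrichment a median of 34.9 (3.84 to 208). The other strong peaks had much the same medians, 142 tags and 34.5-fold. Just inside the tag limit stood the regions at Ccdc41, 4930542C21Rik and Slc9a9 with 100 tags each. Just outside were isolated peaks near D030045P18Rik and Tcea2 with 99 tags. The counting interval (exact Poisson, 95%) of 100 tags is 81.4 to 122, so the limit does not part these peaks. On the spacing limit, the nearest region inside was the one at Nufip1 (50.4 kb from the next midpoint) and the nearest outside the one near Prhoxnb (49.8 kb). The median distance to the next midpoint was 84.2 kb.

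By position the regions fell into groups of nearly equal size. There were 69 with a midpoint within 1 kb of a deposited gene start (35.2%), 57 elsewhere in a gene body (29.1%) and 70 between genes (35.7%). Gene starts made up 21.1% of the strong peaks that had a neighbour within 50 kb, 8.72% of the weaker isolated peaks and 8.98% of all peaks. The annotation placed 68 summits in introns and 95 outside annotated genes. The midpoint was inside the nearest gene's locus for 102 regions and within 10 kb of it for 51 more. It was 10 to 50 kb away for 26 and over 50 kb for 17, with the largest distance, 333 kb, from Sall3. The 196 regions had 196 different nearest genes. For 31 of them the nearest gene start belonged to another gene, and 3 had tied nearest loci, so the pairing of region and gene is uncertain there.

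Fold enrichment and base composition went with position. The median fold was 17.7 at gene starts, 52.1 in gene bodies and 47.1 between genes, although the median tags were alike (145, 144 and 142). Median GC content within 50 bp of the summit was 58.4%, 50.5% and 49.5% in the same order, with a median of 6, 2 and 2 CpG sites. In the strong peaks with neighbours the median fold was also lowest at gene starts, 19.7 against 38.5 in gene bodies and 39.0 between genes. The part of base composition in the lower fold at gene starts was not tested.

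**Figure D1:**
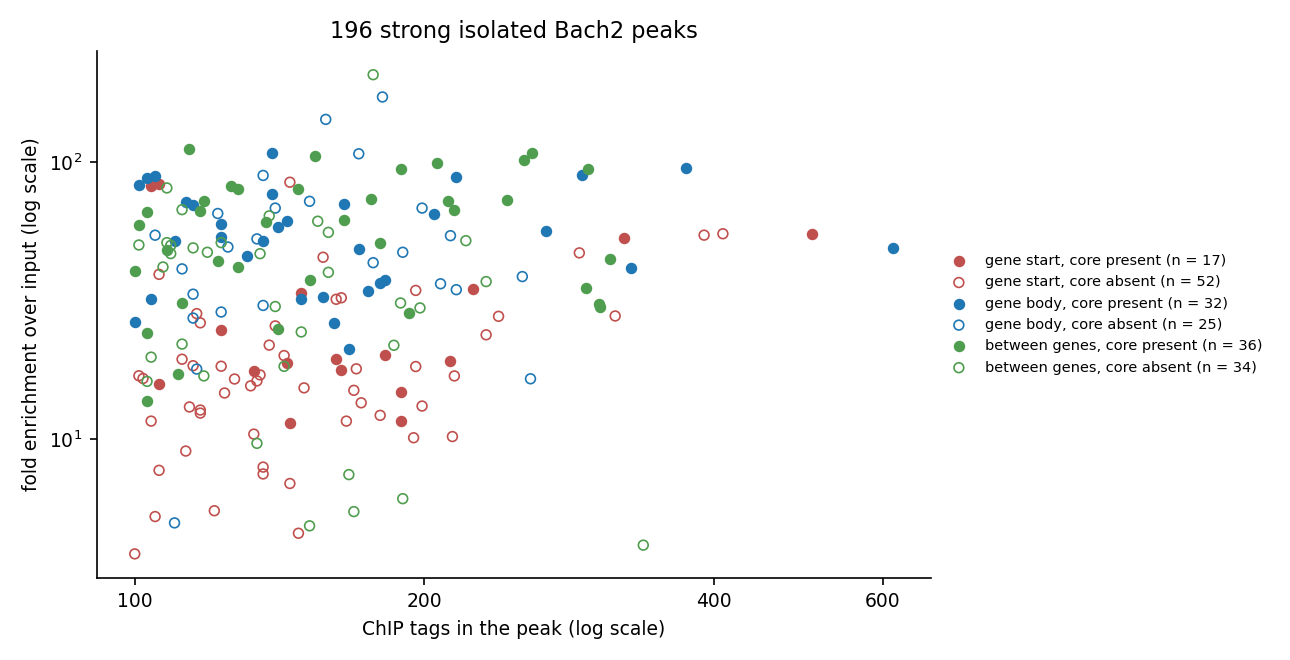
Fold enrichment over input (log axis) against ChIP tags (log axis) for each of the 196 regions of the single ChIP library, coloured by position and filled where the 7-base core lies within 50 bp of the summit. Gene-start regions sit low (median 17.7-fold) and most are open circles, with 17 of 69 filled.

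The 7-base core TGAGTCA, searched on both strands, was within 50 bp of the summit in 85 of 196 regions (43.4%). Windows of the same length 2 kb to each side held it in 1.02%. The share was 40.9% in the other strong peaks and 30.2% in all peaks, whose flanks held it in 1.84% and 1.74%. Over the whole deposited region, 120 of 196 (61.2%) held a core and 47 held more than one. As peaks of 1 library are not replicates of a condition, these shares carry no test.

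The share with a core differed by position. The core was near the summit in 17 of 69 regions at gene starts (24.6%), 32 of 57 in gene bodies (56.1%) and 36 of 70 between genes (51.4%). In the other strong peaks the shares were 31.1%, 42.1% and 44.9%, so the spread between positions was wider among the isolated regions. The longer form, TGC directly before TGAGTCA, which is an arm of a Maf recognition element, was found in 17 regions (8.67%). At gene starts 0 of 69 regions had it. Its share was 6.95% in the other strong peaks, with 26 of 425 at gene starts, and 5.57% in all peaks. TGC directly before TGACTCA, the same arm beside the core read the other way, was found in 8 regions (4.08%), and 2 of 69 at gene starts had it. This second form was in 3.58% of the other strong peaks and 2.17% of all peaks. The region near Tcp11 (259 tags, 108-fold) carries the first form, TGC before TGAGTCA, on the other strand of the window shown. The cyclic AMP type site TGACGTCA was found in 1 region of 196.

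**Figure D2:**
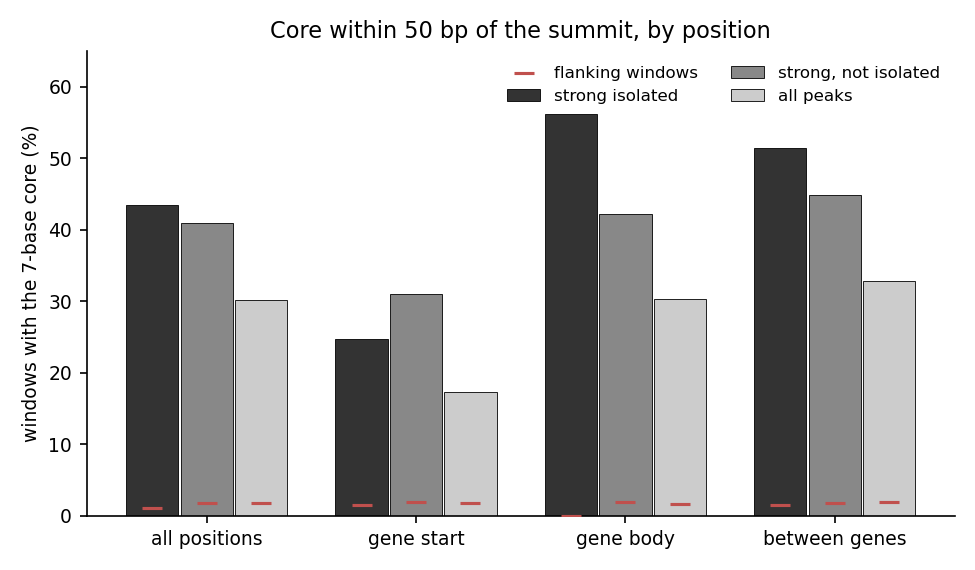
Percent of windows (50 bp to each side of the summit) that hold the 7-base core, by position, for the strong isolated, the other strong and all peaks, with the flanking windows as dashes. The strong isolated bars stand at 24.6% for gene starts, 56.1% for gene bodies and 51.4% between genes, and all flanks lie near 0.

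Where a core was present it lay close to the summit. Of the 111 regions with a core within 500 bp, 85 had it within 50 bp and 53 within 20 bp, with a median distance of 21 bp. In the region near 1700023C21Rik (312 tags) it was centred 1 bp from the summit, and in Lrp8 34 bp from it. The region in an intron of Atxn1, the spinocerebellar ataxia gene ataxin-1, stood apart: 17 cores in 822 bp at 374 tags and 95.3-fold, 4 of them in the window shown.

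**Figure D3:**
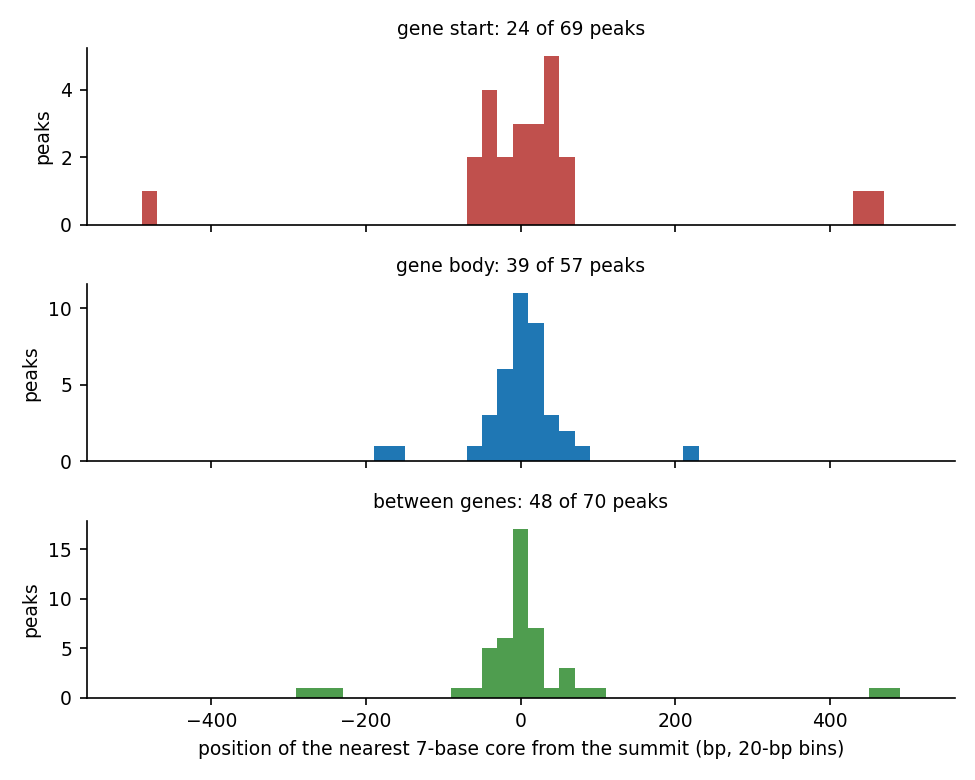
Number of regions by the position of their nearest 7-base core relative to the summit (20-bp bins, within 500 bp), for gene starts (24 of 69 regions), gene bodies (39 of 57) and between genes (48 of 70). Each panel peaks near 0, and the whole set has a median distance of 21 bp.

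The share with a core also went with fold enrichment. It was 0 of 16 regions under 10-fold, 16 of 54 from 10-fold to under 25-fold, 25 of 57 from 25-fold to under 50-fold, 39 of 60 from 50-fold to under 100-fold, and 5 of 9 at 100-fold or more. Median fold was 51.8 with a core and 26.3 without, a gap that was smaller within positions. It was 19.4 with and 16.5 without at gene starts, 55.1 and 47.3 in gene bodies, and 61.5 and 38.6 between genes. Some regions of high fold had no core: the highest of all, 208-fold at chr6:135650871-135651372 between genes near Grin2b, lacked one in its region, as did the intronic region of Serinc5 at 107-fold. Among windows with no exact core, 46.8% held a core with 1 mismatch, against 27.8% of such flanks. For all peaks these shares were 46.9% and 25.6%.

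A few strong regions had little enrichment over input. The region at chr9:35112705-35113200 held 338 tags at 4.13-fold, and 36.9% of its 31-base words occur more than once in the genome. The region at chr3:5860523-5860916 held 190 tags at 6.08-fold, with 51.9% of its words repeated, and lay 2832 kb from the next peak. Over the 196 regions the median was 0.108% of words repeated, and 94 regions had none. Regions with a larger share included those at Cox18 (9.94%) and near Cxcr4 (6.94%). Only exact repeats of 31 bases were counted, and the region in Atxn1, with its 17 cores, scored 0.631%. Whether the cores lie in repeated sequence was not tested. The mapping of repeated reads is not given in the sources used here.

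Nearest genes were read in the iTreg RNA. In the FPKM files (fragments scaled by transcript length and library size), 142 of the 196 nearest genes passed the filter of a mean of 0.5 FPKM over the 6 iTreg libraries. This was 66 of 69 at gene starts, 40 of 57 in gene bodies and 36 of 70 between genes. Of all 23700 loci, 11473 (48.4%) passed. The median WT level was 12.2 FPKM for the genes at whose start a region lay, 4.84 FPKM for gene bodies and 0.613 FPKM for regions between genes.

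The labels were checked on Bach2 itself. Its level was 17.9, 17.7 and 17.2 FPKM in WT and 3.91, 3.39 and 4.12 FPKM in Bach2KO, a log2 difference of -2.08 (SE 0.0743, limma adjusted p = 4.41e-06). The remaining signal cannot be read as intact transcript, since the labels do not give the deleted part. Foxp3, the defining factor of regulatory T cells, stood at 66.7 to 81.1 FPKM in WT and at 5.81 to 19.7 FPKM in Bach2KO. Summed CD4 T cell markers were 1636 to 1669 FPKM in WT and 1396 to 1565 FPKM in Bach2KO. Summed dendritic and MHC class II markers (8 genes) ran from 29.2 to 248 FPKM in WT and from 159 to 189 FPKM in Bach2KO, and B cell markers (9 genes) from 11.6 to 65.1 and from 13.7 to 20.7 FPKM. The groups overlapped for the dendritic and B cell lists, but not for the CD4 T cell list, which was lower in Bach2KO. Summed myeloid markers (8 genes) were 3.04 to 4.21 FPKM in WT and 0.143 to 0.399 FPKM in Bach2KO, and markers of CD8, NK and gamma-delta T cells (5 genes) 4.58 to 5.53 and 11.3 to 12.3 FPKM. The groups did not overlap for these lists either, with the myeloid sum lower and the other higher in Bach2KO. Itgax, 6 of 8 myeloid markers (Lyz1, Csf1r, Cd14, S100a8, S100a9 and Mpo) and the NK markers Ncr1 and Klrb1c were under 0.1 FPKM in all 6 libraries. The part of other cells in the differences was not tested. In bulk RNA, fewer cells of a type and less RNA per cell cannot be told apart.

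Between Bach2KO and WT, 54 of the 142 nearest genes rose and 56 fell (limma, adjusted p under 0.05, log2 of FPKM + 0.5). Over all 11473 tested genes, 74.7% were called, 41% higher and 33.6% lower. The nearest genes stood at 77.5% called, 38.03% higher and 39.4% lower, which is close to that background. Their median log2 difference was -0.003, against 0.07 for all tested genes. Values of the 3 libraries of one group did not overlap those of the other for 111 of 142 genes (78.2%), and for 79.4% of all tested genes.

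Counts were also taken by position and by the core. At gene starts 29 rose and 26 fell of 66, in gene bodies 12 and 17 of 40, and between genes 13 and 13 of 36. With a core near the summit, 20 rose and 22 fell of 54, and without one 34 and 34 of 88. The genes nearest to the other strong peaks were called higher in 49.6% and lower in 32.9% of 1327, with a median log2 of 0.20. That difference in direction from the isolated regions was not tested. Another scaling moves the split: after quantile normalization 40 nearest genes rose and 61 fell, and with equal library sums 34 rose and 73 fell of 143, while the median of all genes moved to -0.09 and -0.19. Among all tested genes those scalings gave 32.4% higher and 42.6% lower, and 28.5% and 47.4%.

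**Figure D4:**
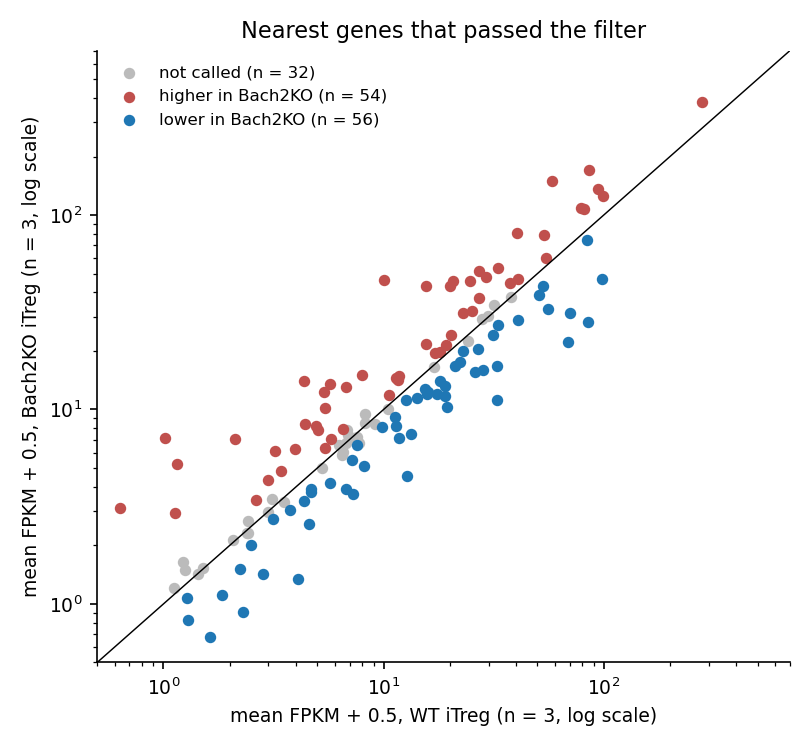
Mean FPKM + 0.5 in Bach2KO against WT iTreg (both log axes, 3 libraries a group) for the 142 nearest genes that passed the filter, coloured by limma call. The 54 higher and 56 lower genes lie on both sides of the line of equality.

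The nearest genes of the 4 regions with most tags differed in direction. Lrp8 was at 1.61, 1.61 and 1.59 FPKM in WT and at 6.03, 7.95 and 5.75 FPKM in Bach2KO. The groups did not overlap, and the rise was 1.74 on the log2 scale (SE 0.123, limma adjusted p = 4.92e-05). Psmd1 was at 20.0, 19.0 and 19.8 FPKM in WT against 41.2, 48.8 and 38.6 FPKM, which is 1.10 higher on the log2 scale by limma (adjusted p = 8.53e-05, SE 0.0896). Mll2 went the other way. It was at 28.0, 28.7 and 26.7 FPKM in WT and 15.1, 15.7 and 15.5 FPKM in Bach2KO, and fell by 0.83 (limma adjusted p = 1.58e-05). Cox18, at 7.64, 7.41 and 8.14 FPKM against 9.13, 9.62 and 8.07 FPKM, overlapped between groups and did not pass (log2 0.20, limma adjusted p = 0.0586).

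Of the next 11 regions by tags, several sat by genes with almost no transcript. The gene 1700023C21Rik was listed at 0 in all 10 RNA libraries and Proc, which encodes the anticoagulant protein C, at 0 in all 6 iTreg libraries. The highest level of 4933422A05Rik was 0.254 FPKM, in naive cells. Atxn1 rose from a mean of 4.93 ± 0.135 to 9.65 ± 1.11 FPKM (SD, n = 3; limma adjusted p = 0.000204). Fam110a rose from 3.84 ± 0.614 to 13.4 ± 0.858 FPKM (limma adjusted p = 3.57e-05). Klf10, a zinc finger factor induced by TGF-β, 83.9 kb from its region, rose from 4.44 ± 0.717 to 7.75 ± 0.619 FPKM (limma adjusted p = 0.00158). Rhbdd3 rose by 0.67 on the log2 scale, 2310067B10Rik fell by 0.37 and D18Ertd653e fell by 1.59. Pnpla8, a calcium-independent phospholipase (log2 -0.12, limma adjusted p = 0.292), and Sytl1, a Rab27 effector (log2 0.11, limma adjusted p = 0.135), did not pass.

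The largest rises within 50 kb of a region included genes of cell division, sterol synthesis, cystine uptake and the proteasome. Mastl, the mitotic kinase Greatwall, was at 0.569, 0.50 and 0.485 FPKM in WT and 6.63, 6.27 and 7.09 FPKM in Bach2KO, which is 2.81 higher on the log2 scale by limma (adjusted p = 2.03e-06, SE 0.0775). Its region, at the gene start, had 145 tags but only 6.90-fold enrichment and no core within 500 bp. Sc4mol, a sterol methyl oxidase of cholesterol synthesis, was at 9.51, 9.05 and 10.2 FPKM against 43.4, 45.6 and 49.1 FPKM, which is 2.21 higher by limma (adjusted p = 2.4e-06, SE 0.0651). Its region, at 71.0-fold, has 2 cores in the window shown. Single libraries of Th1 and Th2 cells held 80.1 and 69.5 FPKM of Sc4mol, naive cells 6.70 FPKM.

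Slc7a11, the cystine and glutamate exchanger that supplies cystine for glutathione, was at 0.613, 0.615 and 0.716 FPKM in WT and 4.50, 5.12 and 4.59 FPKM in Bach2KO. The libraries did not overlap, and the rise was 2.19 (SE 0.0834, limma adjusted p = 5.41e-06). Its region, 0.268 kb from the locus, had 84.8-fold enrichment, the highest of the gene-start regions, without a core. Psma2, a proteasome core subunit, rose from 57.6 ± 5.54 to 148 ± 11.3 FPKM (SD, n = 3; limma adjusted p = 3.72e-05). The other large rises, Setbp1, Kctd9 (a BTB adaptor of cullin ligases), Itpripl1 and Cdv3, were of 1.14 to 1.34 on the log2 scale.

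The largest falls named a different mix. Akap8l, a nuclear protein of the A-kinase anchor family, was at 68.7, 68.8 and 67.9 FPKM in WT and 23.3, 19.6 and 22.7 FPKM in Bach2KO, with a limma log2 difference of -1.63 (adjusted p = 7.99e-06, SE 0.0695). Serinc5, a multipass membrane protein that blocks retroviral infectivity, was at 32.2, 32.2 and 32.8 FPKM against 11.2, 9.57 and 11.3 FPKM, with a limma log2 difference of -1.56 (adjusted p = 9.63e-06, SE 0.0703). Mccc1, a subunit of the leucine-degrading methylcrotonyl-CoA carboxylase, fell by 1.49, and Slc6a6, the taurine transporter, by 1.18. The locus of A330050B17Rik ties with Mccc1 as nearest, so this pairing is uncertain. Tecpr1, an autophagy protein, fell by 1.08, and 1700049G17Rik, Fbxl22 and Sh3bgrl2 by 1.61, 1.33 and 1.26.

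Cxcr4, the receptor for the chemokine CXCL12, lay 39.1 kb from its region (232 tags, 37.1-fold). It was at 33.6, 32.2 and 31.3 FPKM in WT and 15.8, 12.8 and 20.3 FPKM in Bach2KO, with no overlap. The limma log2 difference was -0.99 (SE 0.158, adjusted p = 0.00162). Naive cells held 62.0 FPKM and Th1 cells 14.9 FPKM, each in 1 library.

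**Figure D5:**
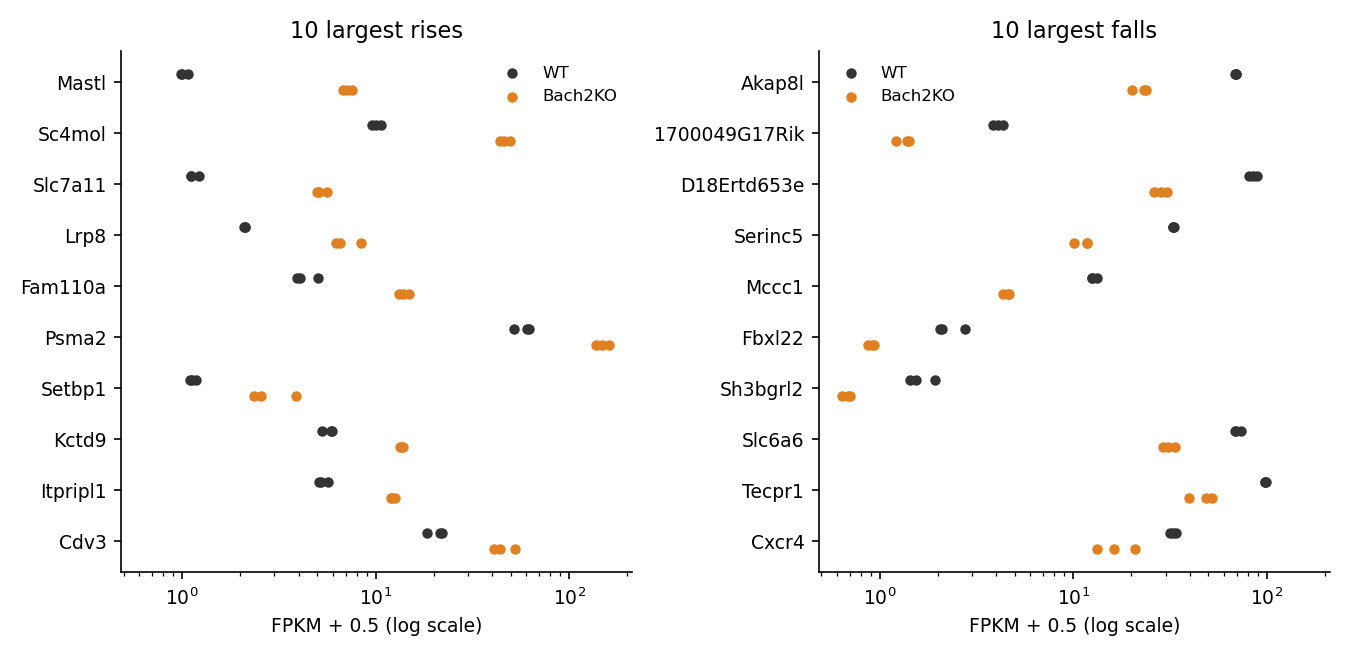
FPKM + 0.5 (log axis) in each of the 3 WT and 3 Bach2KO iTreg libraries for the nearest genes, within 50 kb, with the 10 largest rises (left) and the 10 largest falls (right). WT and Bach2KO points do not overlap in any row, as the selection required.

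The nearest genes were also compared with 10 gene lists of T cell programmes, receptors, signalling, AP-1, CNC and small Maf factors and oxidative stress. Of the 196 nearest genes 3 were on a list (1.53%), against 90 of the 1581 genes nearest to the other strong peaks (5.69%) and 0.839% of all loci of at least 300 bp. The difference between these shares was not tested. The 3 were Slc7a11 and Cxcr4, given above, and Nfe2l3, a CNC factor related to Bach2. Nfe2l3 lay 145 kb from its region and reached at most 0.207 FPKM in iTreg, under the filter.

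For the lists these 3 genes came from, 11 of 16 tested oxidative stress and haem genes rose and 4 fell. Of the cytokine and chemokine receptors 15 of 26 rose and 9 fell, and of the AP-1, CNC and small Maf genes 10 of 16 rose and 5 fell. The other lists held no nearest gene of a strong isolated region. Among them 14 of 17 Th1 genes rose and 1 fell, 11 of 14 Th2 genes rose and 1 fell, and 6 of 13 Th17 genes rose and 3 fell. Of the Treg genes 16 of 22 rose and 5 fell, and of the effector and memory regulators 15 of 23 rose and 4 fell. Signalling and receptor-proximal genes rose in 15 of 31 cases and fell in 9. The naive and memory T cell genes went the other way, with 2 of 18 higher and 14 lower. Beside these stand 41% higher and 33.6% lower among all tested genes. The lists were chosen with earlier results of these data known, so their counts are a description only.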

How the data were processed

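The authors deposited 1 ChIP-seq peak table (MACS 1.4.0beta per the file header, p cutoff 1e-05, 8992019 ChIP and 9999999 input tags of 49 bp, mm9) with tag counts, fold, a score made from the p-value and FDR percent per peak, and FPKM tables for 10 RNA libraries. Bowtie, TopHat and Cufflinks are named, without versions, in the submitters' processing notes. No RNA counts were used, and the depth is not given. The fold ratio, the score, the percent FDR and the tag counts are the authors' deposited values. Members and gene lists were chosen with earlier results of these data known. Nearest genes came from the deposited loci of at least 300 bp (ties resolved by the nearer gene start), gene position classes from a 1 kb limit and GENCODE annotation of the same build, and motifs from both strands of the mm9 sequence. FPKM values were tested as log2(FPKM + 0.5) for loci with an iTreg mean of at least 0.5 FPKM, by limma 3.58.1 (R 4.3.3), 3 WT against 3 Bach2KO, Benjamini-Hochberg adjusted. Such fold changes understate those of low genes. In simulated data of this size, 67, 67 and 66 of 11473 genes were changed 1.5-, 2- and 4-fold. The test recovered 64.2%, 85.1% and 97.0% of these changes. In the real data 74.7% of genes were called, so the adjusted threshold differs and these rates do not describe it. Named genes were the nearest genes of the 15 regions with most tags, the 10 largest called rises and falls within 50 kb with no overlap and a mean of at least 1 FPKM, listed genes, those at the tag limit, Bach2 and Foxp3. Log2 correlations between libraries of a group were 0.942 to 0.959. The input library was not analysed here. A few items near these regions are not reported here.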

Additional observations from a re-analysis of the deposited data

How the results depend on the processing

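The calls over all genes and over the nearest genes stayed within 1.5 times their counts under other pseudocounts, filters, robust variances, failed loci left out and quantile normalization. Leaving out 1 library at a time gave 96 to 109 calls among the nearest genes (48 to 55 higher, 48 to 54 lower). With equal library sums, 34 nearest genes were higher. With the replicate number as a block, 7886 genes and 101 nearest genes were called. Same-numbered libraries had correlations of deviations of -0.038, -0.038 and 0.006, so no shared deviation was seen. Whether a number marks a shared animal or culture is not given in the labels. The definition of the regions moved the counts most. At 150 tags or more there were 89 regions, 42 with a core, and 49 called nearest genes (25 higher, 24 lower), and at 80 tags or more 84 nearest genes were higher. With no midpoint within 25 kb there were 447 regions, 180 with a core, and 271 called nearest genes (149 higher, 122 lower), and within 100 kb 76 regions, 36 with a core, and 37 called (14 higher, 23 lower). The share with a core was 40.3% to 47.4% over these limits. The set of genes tested changed with each limit, so these called counts are not shares. Over all tested genes 74.7% were called, 41% higher and 33.6% lower. Leaving out regions under 10-fold, a limit chosen after seeing the data, left 180 regions, 85 with a core. Of 33 named genes, Cox18 (-0.0628), Sytl1 (-0.156, and -0.0571 after quantile normalization) and Slc9a9 (-0.0631) turned negative with equal library sums, and none of the 3 was called. No named gene lost its call under any alternative in which it was tested, but many were named for their large changes. Over all nearest genes, equal library sums kept 34 of the 54 rises and all 56 falls, and 9 called genes changed sign. Quantile normalization kept 40 rises and 56 falls, and 3 called genes changed sign. The tag limit has a counting error of its own, and 1 ChIP library gives no replicate check of any region.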
